A study of Homo sapiens with 6 samples.

Results

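The aldo-keto reductases of family 1 are the enzymes described here: AKR1A1, AKR1B1, AKR1B10, AKR1C1, AKR1C2, AKR1C3 and AKR1E2. They are 7 of the 26485 rows of a table of RNA sequencing counts, matched by symbol, and were picked with their difference between the groups in view. That difference is therefore given below as a description, without a p-value. Another 5 rows carry a symbol starting with AKR1 and are described beside the members.

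The counts come from polyadenylated RNA of HuCCT1, an established line of human bile duct cancer (cholangiocarcinoma) cells, grown in DMEM-F12 medium with 10% serum. The study asked what follows the loss of AQP1, the gene of the water channel aquaporin-1. It used 3 libraries (a, b and c) of a wild-type clone, labelled CRISPR clone 1, and 3 (a, b and c) of an AQP1 knockout made by CRISPR/Cas9, clone 22. Each genotype is 1 clone, so genotype and clone cannot be told apart. Whether a, b and c were grown separately is not stated. The p-values thus rest on the spread among libraries of a clone, which may be technical.

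Libraries held 36925338 to 41724447 counts, and a count of 3, taken as the detection floor, equals 0.0719 to 0.0812 CPM (counts scaled by the library total). AQP1 itself had 2, 8 and 10 counts in wild type and 10, 7 and 7 in the knockout, which does not check the genotype, since editing can leave the transcript in place. Of 13 cholangiocyte markers 12 had counts, led by the keratin gene KRT7 at 1751 ± 38.3 and 1613 ± 12.5 CPM (SD, n = 3 libraries per group, as in all such values below), while TFF3 was at 0 in all 6 libraries. Their summed level was 3295 to 3379 CPM in wild type, against 1984 to 2012 CPM for the knockout. Of 10 tested, 7 fell, among them KRT19 (756 ± 13.8 to 93.5 ± 4.59 CPM) and EPCAM (484 ± 6.24 to 40.7 ± 1.41 CPM). The 2 that rose were SPP1 (0.291 ± 0.0469 to 11.4 ± 1.01 CPM) and ANXA4 (37.7 ± 2.01 to 69.8 ± 2.90 CPM). Across the 14405 genes tested, 74.4% were called between the clones at an adjusted p under 0.05 (edgeR quasi-likelihood, Benjamini-Hochberg or BH), 37.1% higher and 37.2% lower in the knockout. The median log2 fold change of all tested genes was 0.00562. All fold changes are knockout over wild type.

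Family 1 aldo-keto reductases are soluble barrel-shaped enzymes that use NADPH to turn aldehydes and ketones into alcohols. Their substrates include sugars, lipid aldehydes, retinal, prostaglandins, steroid hormones and drugs. The AKR1C enzymes are abundant in liver, where AKR1C2 is also known as a bile acid-binding protein, and AKR1C1 to AKR1C3 and AKR1B10 are well-known targets of the oxidant-responsive factor NRF2. AKR1B1 is known for its induction by hypertonic medium through the factor NFAT5.

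The members fall at 3 places in the genome (GRCh38, RefSeq). AKR1E2 (chromosome 10, 4824973 to 4873237) lies 90178 bases from AKR1C1 (4963415 to 4983283), which is followed by AKR1C2 (4987775 to 5018000) and AKR1C3 (5048781 to 5107686). AKR1B1 (chromosome 7, 134442350 to 134459239) and AKR1B10 (134527567 to 134541412) lie 68328 bases apart. AKR1A1 is alone on chromosome 1 (45550826 to 45570049).

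The AKR1C genes are near copies of each other, which bears on every count below. The coding sequences of AKR1C1, AKR1C2 and AKR1C3 (GENCODE release 29, GRCh38) are 972 bases long with 9 coding exons each. AKR1C1 and AKR1C2 differ at 19 of these bases (98.05% identity), and AKR1C3 is 91.46% identical to AKR1C1 and 91.05% to AKR1C2. The 60 coding bases that best separate AKR1C1 from AKR1C2, bases 103 to 162 counted from the A of the start codon, are shown with capitals at the 15 positions where the 3 copies are not all alike:
AKR1C1: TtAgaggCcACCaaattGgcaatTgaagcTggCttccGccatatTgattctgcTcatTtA
AKR1C2: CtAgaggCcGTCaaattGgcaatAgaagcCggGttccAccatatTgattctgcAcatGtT
AKR1C3: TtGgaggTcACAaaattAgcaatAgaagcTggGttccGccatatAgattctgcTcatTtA

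A further stretch shows where reads cannot tell AKR1C1 from AKR1C2. Bases 784 to 972, the last 189 of the coding sequence, are the longest run in which AKR1C1 and AKR1C2 are identical. Capitals mark the 18 positions at which AKR1C3 has another base:
AKR1C1 and AKR1C2: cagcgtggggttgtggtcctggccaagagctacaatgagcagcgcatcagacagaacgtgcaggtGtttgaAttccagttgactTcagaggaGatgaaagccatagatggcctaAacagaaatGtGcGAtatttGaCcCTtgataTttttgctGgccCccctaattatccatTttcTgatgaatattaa
AKR1C3: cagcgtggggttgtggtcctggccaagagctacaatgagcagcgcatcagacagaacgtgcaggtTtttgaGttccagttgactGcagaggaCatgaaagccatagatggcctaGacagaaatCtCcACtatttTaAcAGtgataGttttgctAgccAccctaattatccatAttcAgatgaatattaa

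Of all 100-base windows of the coding sequence, 21.0% of those of AKR1C1, 26.7% of AKR1C2 and 9.74% of AKR1C3 occur unchanged in a transcript of another gene, and of all 50-base windows 54.5%, 57.2% and 23%. Those other genes were mainly the remaining AKR1C copies. For AKR1A1 and AKR1E2 no window of either length was shared. AKR1B1 shared 7.21% of its 50-base windows, led by its processed pseudogenes, and none of 100 bases. AKR1B10 shared 28.4% of its 50-base and 3.52% of its 100-base windows, mainly with its neighbour AKR1B15. The sources used here give neither the read length nor the treatment of reads that fit several copies. The split of counts between AKR1C1 and AKR1C2 is therefore uncertain, and their sum with AKR1C3 is given as well.

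The longest coding run that AKR1B10 shares with AKR1B15 has 116 bases (bases 236 to 351 of the AKR1B10 coding sequence), shown because a read inside it fits both genes:
AKR1B10 and AKR1B15: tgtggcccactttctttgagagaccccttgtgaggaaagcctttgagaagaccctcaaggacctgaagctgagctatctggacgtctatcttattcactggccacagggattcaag

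All 7 members passed the filter on low counts, though AKR1B1 would not have passed on its wild-type libraries alone. In CPM the 3 knockout libraries did not overlap the 3 wild-type libraries in any of the 7, and across all tested genes 77.3% showed no overlap. The edgeR test called 7 of 7, against 74.4% of all tested genes. Since the members were chosen on this contrast, nothing is read from those counts. AKR1C1, AKR1C2, AKR1C3, AKR1B10 and AKR1B1 were higher in the knockout, AKR1E2 was lower, and AKR1A1 was within 10% of its wild-type level. The median log2 fold change of the members was 1.54, and 14.1% of all tested genes were at least 2-fold higher in the knockout and 9.36% at least 2-fold lower.

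**Figure D1:**
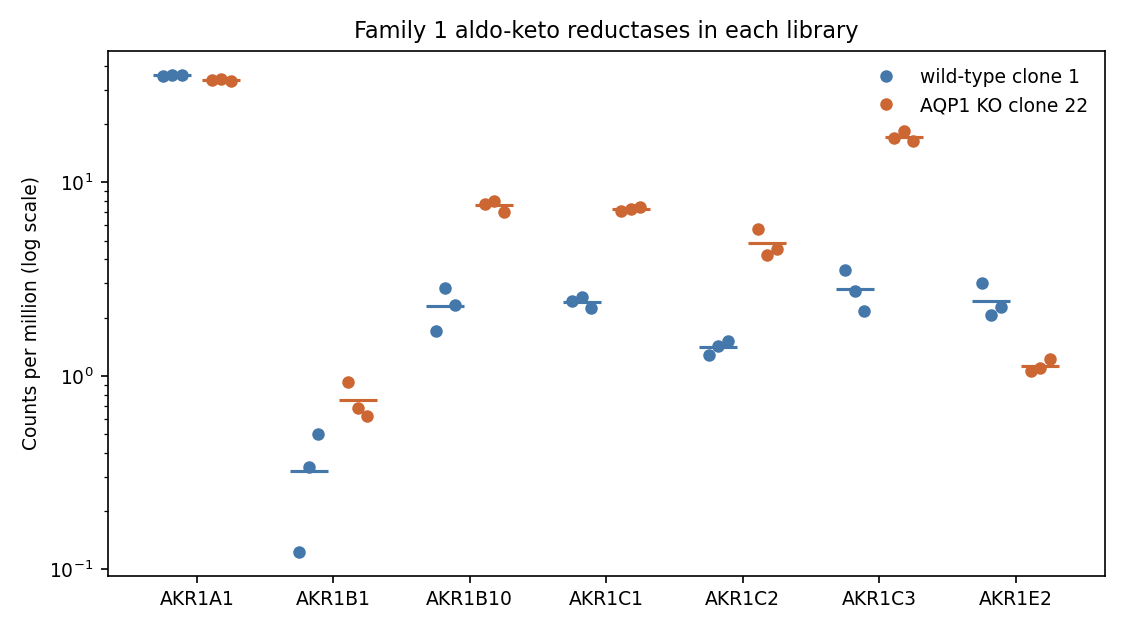
CPM of the 7 enzymes in each library (log axis), with wild-type libraries a, b and c in blue and knockout libraries a, b and c in orange, from left to right, and bars at the group means. AKR1A1 sits near 35 CPM in both clones, AKR1C3 goes from 2.81 to 17.1 CPM, and AKR1B1 stays under 1 CPM in every library.

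AKR1C3 differed most. Its enzyme makes testosterone from androstenedione and prostaglandin F from prostaglandin D. For AKR1C3, the wild-type libraries (a, b, c) held 142, 114 and 90 counts, and those of the knockout 687, 749 and 602. The groups were far apart, and wild-type library a was the highest of its group. In CPM this was 2.81 ± 0.674 against 17.1 ± 1.04, a fitted log2 fold change of 2.56 (SE 0.144), or 5.89-fold. Of all tested genes 4.83% had a larger log2 fold change.

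AKR1C1, whose enzyme inactivates progesterone, had 99, 105 and 94 counts in wild type and 291, 299 and 275 in the knockout. Both groups were tight, at 2.41 ± 0.147 and 7.29 ± 0.160 CPM. The log2 fold change was 1.54 (SE 0.137), or 2.91-fold. AKR1C2, which inactivates the potent androgen dihydrotestosterone, had 52, 59 and 63 counts in wild type and 235, 173 and 167 in the knockout. Knockout library a stood above the other two, and the group levels were 1.41 ± 0.115 and 4.84 ± 0.810 CPM. Its log2 fold change was 1.73 (SE 0.190), or 3.31-fold.

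Summing the 3 copies removes the question of how reads were divided among them only if each shared read was counted once. Reads of AKR1C4 or of a pseudogene are a further exception. If shared reads were dropped or counted for several copies, the sum and the shares given below still depend on that. The sum was 293, 278 and 247 counts in wild type and 1213, 1221 and 1044 in the knockout. After TMM scaling it went from 6.75 ± 0.681 to 28.7 ± 0.981 CPM, a 4.26-fold difference (log2 ratio 2.09). Adding every other AKR1C row of the table left the log2 ratio at 2.09, since AKR1C4 had 2 counts in all, AKR1C6P 1 and AKR1C8P none.

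The make-up of that sum also differed between the clones. The AKR1C3 share of the summed counts was 48.5%, 41.0% and 36.4% in wild type (a, b, c) and 56.6%, 61.3% and 57.7% in the knockout libraries. AKR1C1 took 33.8 to 38.1% in wild type and 24.0 to 26.3% in the knockout. For these 2 genes the groups did not overlap, but the exact 95% interval of AKR1C3 in wild-type library a (42.6 to 54.3%) reached that of knockout library a (53.8 to 59.4%). For AKR1C1 the interval in wild-type library a (28.4 to 39.5%) likewise reached that of knockout library c (23.7 to 29.1%). AKR1C2 overlapped, with 17.7 to 25.5% against 14.2 to 19.4%. The ratio of AKR1C1 to AKR1C2 counts was 1.73 ± 0.211 in wild type and 1.54 ± 0.263 in the knockout and overlapped as well. Such intervals hold the counting error alone, as PCR copies of a molecule are counted separately.

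**Figure D2:**
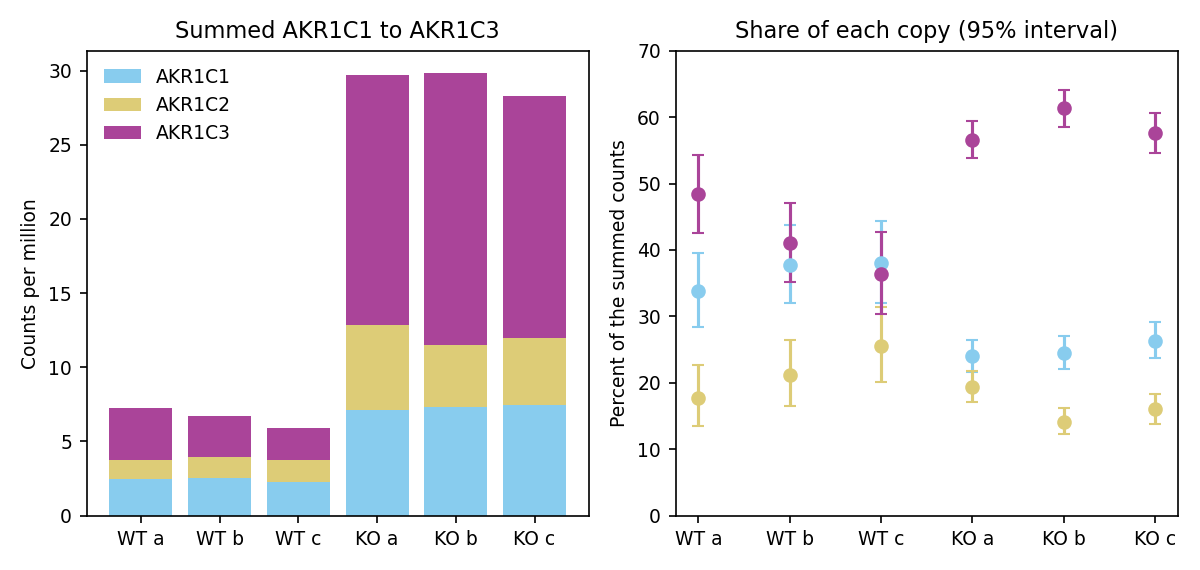
Left, CPM of AKR1C1, AKR1C2 and AKR1C3 stacked for each library. Right, the share of each copy in the summed counts of a library, with exact 95% intervals. The stacks reach 5.92 to 7.23 CPM in wild type, against 28.3 to 29.8 CPM for the knockout, and the AKR1C3 share (purple) is 36.4 to 48.5% in wild type and 56.6 to 61.3% in the knockout.

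AKR1B10 reduces retinal and lipid aldehydes and is best known from the intestine and from tumours of lung and liver. It had 69, 117 and 97 counts in wild type and 317, 328 and 260 in the knockout, with wild-type library a the lowest of the 6. Levels were 2.29 ± 0.566 and 7.61 ± 0.507 CPM, with a log2 fold change of 1.68 (SE 0.176), or 3.20-fold. Its near copy AKR1B15, which is no member and was too low to be tested, had 0 counts in wild type and 7, 12 and 0 in the knockout. Its group ranges touch at 0.

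AKR1B1, or aldose reductase, turns glucose into sorbitol in the polyol pathway. It was the least abundant member: 92.4% of tested genes had a higher mean level. It had 5, 14 and 21 counts in wild type and 38, 28 and 23 in the knockout, so the highest wild-type and the lowest knockout library were 2 counts apart. AKR1B1 passed the filter only through the knockout, so a rise was built in. Levels were 0.322 ± 0.191 and 0.746 ± 0.163 CPM, with a log2 fold change of 1.15 (SE 0.462). That value was 0.76 without wild-type library a and 1.62 without wild-type library c. Summed over libraries, knockout counts were 2.32 times those of wild type per library total (95% interval 1.58 to 3.46). That interval holds the counting error of the pooled counts alone and leaves out the spread among libraries, so it is no test of the difference.

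AKR1A1, the aldehyde reductase that acts on glucuronate and many other aldehydes, was the most abundant member. It had 1439, 1480 and 1501 counts in wild type and 1381, 1403 and 1230 in the knockout, or 35.8 ± 0.242 and 33.8 ± 0.494 CPM. The log2 fold change was -0.13 (SE 0.053), and with library totals in place of TMM scaling it was -0.08. Summed over libraries, knockout counts were 0.946 times those of wild type per library total (95% interval 0.906 to 0.987). Here too the interval holds the counting error alone, without the spread among libraries.

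AKR1E2, an anhydrofructose reductase known from testis, was the only member at least 2-fold lower in the knockout. It had 122, 85 and 95 counts in wild type and 43, 45 and 45 in the knockout, with wild-type library a highest and the knockout libraries nearly equal. Levels were 2.45 ± 0.499 and 1.12 ± 0.0853 CPM, with a log2 fold change of -1.18 (SE 0.237). AKR1E2 lies next to the AKR1C genes, so neighbours on chromosome 10 differed in opposite directions.

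**Figure D3:**
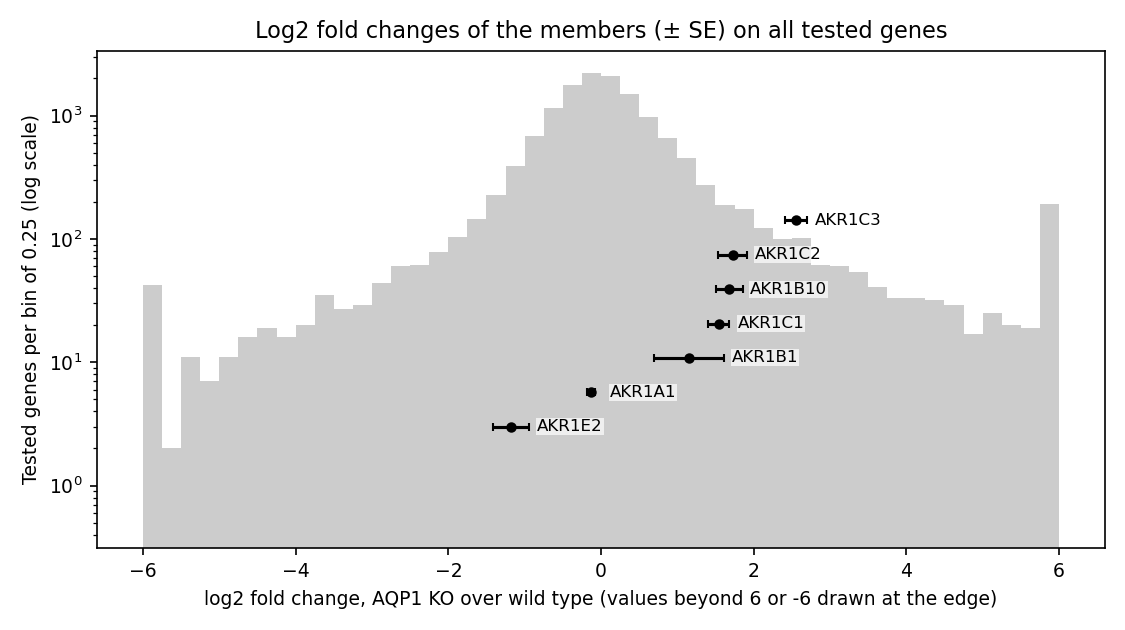
Grey bars count tested genes by log2 fold change (knockout over wild type, log axis of counts, outlying values at the edge). Black points are the members with their SE, and their height only separates them. Only AKR1A1 and AKR1E2 lie below 0, and AKR1C3 lies farthest right at 2.56.

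Per length of coding sequence, AKR1A1 led in both clones, at 36.6 ± 0.248 CPM per kb in wild type and 34.6 ± 0.506 in the knockout. In wild type AKR1C3 (2.89 ± 0.694), AKR1E2 (2.54 ± 0.518), AKR1C1 (2.48 ± 0.151) and AKR1B10 (2.40 ± 0.595 CPM per kb) followed, and these 4 lay within each other's spread. AKR1C2 (1.45 ± 0.118) and AKR1B1 (0.338 ± 0.200 CPM per kb) came last. In the knockout AKR1C3 was second at 17.6 ± 1.07 CPM per kb. AKR1B10 (8 ± 0.533) and AKR1C1 (7.51 ± 0.165) did not differ beyond their spread, and AKR1C2 (4.97 ± 0.834), AKR1E2 (1.17 ± 0.0886) and AKR1B1 (0.784 ± 0.171 CPM per kb) followed. The order of AKR1C1 and AKR1C2 rests on the uncertain division of their reads.

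Counts of the whole family reflect this shift in make-up. The 7 genes together had 47.4 ± 0.402 CPM in wild type, against 72.6 ± 1.85 CPM for the knockout. AKR1A1 supplied 75.4 ± 1.02% of the family's counts in wild type and 46.6 ± 0.590% in the knockout, while the 3 AKR1C copies together supplied 13.96 ± 1.31% and 40.3 ± 0.210%.

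The remaining family 1 rows were at or near the detection floor. AKR1D1, the liver enzyme that reduces the ring of bile acid precursors, had 4, 6 and 16 counts in wild type and 2, 0 and 3 in the knockout, and was too low to be tested. AKR1C4, the liver-specific member of the AKR1C cluster, had 0 counts in 5 libraries and 2 in knockout library a. A count of 0 in a library allows up to 3 counts, or 0.0719 to 0.0812 CPM.

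Outside family 1, the table holds aldo-keto reductases of family 7 and the potassium channel beta subunits, which share the same fold. Of 6 tested, 3 rose and none fell, where 37.1% of all genes rose. KCNAB2 rose from 2.81 ± 0.152 to 25.3 ± 1.26 CPM (log2 fold change 3.11, SE 0.086; BH-adjusted p from edgeR = 9.36e-13) and KCNAB3 from 0.841 ± 0.194 to 2.03 ± 0.748 CPM (1.21, adjusted p = 0.00337). AKR7A2, an aldehyde reductase of the Golgi and cytosol, rose from 33.04 ± 1.46 to 40.2 ± 1.19 CPM (0.23, adjusted p = 0.0023 in the same test). The others did not pass: AKR7A3 (log2 fold change -0.74), AKR7L (-0.44) and KCNAB1 (-0.12). Without knockout library b, AKR7A3 passed as lower (BH-adjusted p from edgeR = 0.0282). The family 7 genes are close copies, so their counts too depend on how shared reads were treated.

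Genes next to the members were compared because neighbours can differ together between clones. Within 1 Mb of the AKR1C and AKR1E2 cluster, 11 non-member genes were tested, of which 3 rose and 5 fell (72.7% called); without wild-type library b or knockout library a 1 rose. The long noncoding LINC00705, the one neighbour there past 2-fold, passed the filter only through the knockout, so a rise was built in. Its level was 0.122 ± 0.0488 CPM in wild type, against 0.513 ± 0.189 CPM for the knockout (log2 fold change 1.99). LINC00704 rose by 0.25, a call lost in 6 of its 13 alternatives, and both are uncertain because it is not stated whether counting used strand. The largest falls were FAM208B (log2 fold change -0.63) and RBM17 (-0.46). The 10 neighbours other than LINC00705 thus lay between -0.63 and 0.25, while AKR1C1 to AKR1C3 lay between 1.54 and 2.56. The members were picked for their difference, so nothing is read from that gap.

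Around AKR1B1 and AKR1B10, 9 neighbours were tested, of which 2 rose and 4 fell. Their log2 fold changes ran from -1.40 in AGBL3 to 0.63 in TMEM140, below both AKR1B genes. Both AKR1B genes were picked for their difference, and AKR1B1 was tested only through its knockout level, so nothing is read from that order. C7orf49 fell by 0.77 and SLC35B4 rose by 0.20. Around AKR1A1, 36 neighbours were tested, of which 15 rose and 9 fell, with a median of 0.08. DMBX1 (0.0484 ± 0.0479 to 0.973 ± 0.0965 CPM) and ZSWIM5 (log2 fold change 2.47) had the largest rises, but both were near 0 in wild type and were tested only through their knockout level, so a rise was built in. The largest falls were BEST4 (-2.36) and PLK3 (-1.21).

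**Figure D4:**
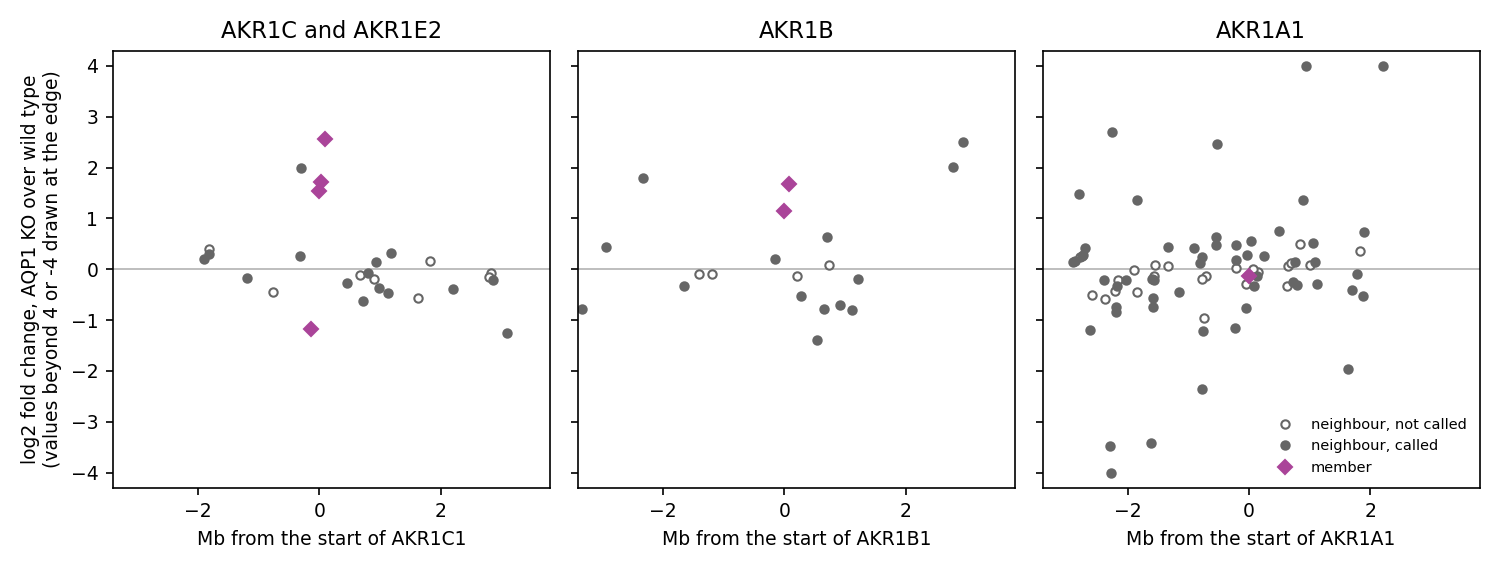
Log2 fold change (knockout over wild type) of tested genes within 3 Mb of the members, by distance of their start from AKR1C1, AKR1B1 and AKR1A1. Filled circles are neighbours called by edgeR, open circles are not called, and purple diamonds are the members. Within 1 Mb, AKR1C3 stands above all neighbours, AKR1C1 and AKR1C2 above all except LINC00705, and AKR1E2 below all.

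Promoter letters were compared because the AKR1C genes differed in the same direction. RefSeq promoter windows were found for 6 of the 7 members, and the 250 bases before each start were used. A start here is the transcript start of that window. For AKR1B1, AKR1C2, AKR1C3 and AKR1E2 it lies inside the gene span given above, which reaches the outermost transcript. Of the 2 windows listed for AKR1B1, AKR1C3 and AKR1E2, the one that also holds the first coding bases was taken, or else the first listed. AKR1C1 and AKR1C2 have windows that are 96.5% identical, and that of AKR1C3 is 69.2% identical to AKR1C1. The longest run that all 3 share is ACATGCCATTGGTTAACCA, 19 bases. Among 35116 promoter windows of the same length, searched on both strands, 3 hold it, and these belong to AKR1C1, AKR1C2 and AKR1C3. The run was taken from these 3 windows, so their match was fixed in advance. Whether the run bears on the levels was not tested. It is shown in capitals within 30 bases of the strand of the gene (GRCh38.p14, AKR1C1 chr10:4963326-4963355 plus strand, AKR1C2 chr10:5003921-5003950 minus strand, AKR1C3 chr10:5094316-5094345 plus strand):
AKR1C1: ctctcACATGCCATTGGTTAACCAgcagac
AKR1C2: ctctcACATGCCATTGGTTAACCAgcagac
AKR1C3: ctcctACATGCCATTGGTTAACCAtcagtc

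The run begins 84, 88 and 93 bases before these transcript starts of AKR1C1, AKR1C2 and AKR1C3. It holds a CCAAT box read on the other strand, and 32% of all windows have CCAAT on either strand. AKR1B1 has CCAAT 98 bases before its start and AKR1E2 has it at 3 places, while AKR1A1 has none. The antioxidant response core TGACNNNGC (10.9% of all windows), the AP-1 site TGANTCA (6.57%) and TGGAAA, the core of the NFAT5 site (18%), were searched on both strands and are not among the letters of any of the 6 windows. Bases farther from the start were not searched, and AKR1B10 had no window. The search therefore cannot say whether these genes have such sites elsewhere. The AKR1C windows hold 35.6 to 40.8% G and C and 0 to 2 CpG, against 60.4 to 68.0% and 17 to 28 CpG in AKR1A1, AKR1B1 and AKR1E2. The members with CpG-poor windows were thus the 3 AKR1C genes, all higher in the knockout, and the CpG-rich windows belonged to members that differed in either direction. The AKR1C windows are related copies and the members were picked for their difference. Whether CpG content bears on the levels was not tested.

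Genes of the pathways that these enzymes serve were taken from 8 lists without members. On the list of prostaglandin enzymes, carriers and receptors, 8 of 15 tested genes rose and 3 fell, with a median log2 fold change of 0.20. PTGFR, the receptor of prostaglandin F, which AKR1C3 and AKR1B1 can make, rose from 0.0968 ± 0.0480 to 10.4 ± 1.36 CPM (log2 fold change 6.64, SE 0.254, BH-adjusted p from edgeR = 2.56e-11). PTGIR, the prostacyclin receptor, rose from 0.0321 ± 0.0278 to 0.367 ± 0.128 CPM. Both were so low in wild type that they passed the filter only through the knockout, so a rise was built in. PTGER4, a receptor of prostaglandin E, fell from 8.87 ± 1.11 to 5.30 ± 0.511 CPM, and PTGES2, a prostaglandin E synthase, from 68.6 ± 0.698 to 46.0 ± 1.71 CPM.

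On the list of steroid enzymes and receptors, 9 of 20 tested genes rose and 7 fell (median 0.26). HSD17B14, a steroid dehydrogenase, rose from 0.0571 ± 0.0511 to 2.21 ± 0.407 CPM, and it too passed the filter only through the knockout. HSD17B2, which inactivates testosterone and estradiol and so opposes the AKR1C3 reaction, fell from 12.1 ± 0.571 to 1.74 ± 0.388 CPM (log2 fold change -2.85, BH-adjusted p from edgeR = 7.23e-10). HSD11B2, which inactivates cortisol, fell from 9.15 ± 0.752 to 1.93 ± 0.336 CPM.

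On the list of other carbonyl, quinone and retinal reductases, 8 of 18 tested genes rose and 7 fell, with a median of 0.02. The quinone reductase gene NQO1 rose from 116 ± 2.85 to 446 ± 16.5 CPM (log2 fold change 1.89) and DHRS9, tested only through its knockout level, from 0.121 ± 0.0640 to 0.734 ± 0.0429 CPM. DHRS2 fell from 2.71 ± 0.585 to 1.04 ± 0.363 CPM and RDH11, a retinal reductase, from 219 ± 2.47 to 114 ± 0.990 CPM. On the NRF2 axis, which shares NQO1, UGDH, CBR1 and CBR3 with other lists, 16 of 26 rose and 6 fell (median 0.28). NFE2L2, the gene of NRF2, rose from 148 ± 2.56 to 207 ± 4.48 CPM (0.43, BH-adjusted p from edgeR = 3.85e-09), and its inhibitor KEAP1 did not pass, at 71.7 ± 3.94 and 71.8 ± 2.36 CPM. The export pump gene ABCC3 rose by 3.67 on the log2 scale, and the NRF2 partner genes MAFK and MAFF fell by 1.04 and 0.97.

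NADPH is the cofactor of the family. Of 15 tested genes of NADPH supply, 7 rose and 5 fell, with a median of 0.00. IDH2, a mitochondrial source, rose from 17.4 ± 1.30 to 41.5 ± 0.979 CPM. ALDH1L1 (log2 fold change -0.82) and RPIA (-0.77) had the largest falls.

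On the list for polyols, glucuronate and methylglyoxal, where AKR1B1 and AKR1A1 act, 3 of 12 tested genes rose and 6 fell (median -0.13). UGDH, which makes UDP-glucuronate, rose from 41.8 ± 2.08 to 107 ± 2.14 CPM and LDHD from 0.316 ± 0.0289 to 1.29 ± 0.122 CPM. KHK, a fructose kinase, fell from 7.65 ± 0.316 to 5.10 ± 0.0172 CPM and XYLB, a xylulose kinase, from 12.0 ± 1.09 to 9.32 ± 0.722 CPM. SORD, which turns the sorbitol made by AKR1B1 into fructose and was named after its values were seen, went from 60.8 ± 2.20 to 58.3 ± 1.51 CPM (log2 fold change -0.11, BH-adjusted p from edgeR = 0.0332). Whether the SORD call held in the alternative runs was not followed, and 5 or 6 genes of this list fell in them.

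On the list of hypertonic response and cell volume genes, 4 of 16 tested genes rose and 6 fell (median -0.06), and 62.5% were called. NFAT5 rose from 89.0 ± 3.65 to 104 ± 6.20 CPM (log2 fold change 0.17, BH-adjusted p from edgeR = 0.00224). SLC38A2, an amino acid carrier, rose from 388 ± 12.5 to 838 ± 7.61 CPM and the kinase gene WNK1 from 434 ± 12.1 to 782 ± 8.08 CPM. SLC12A7, a potassium-chloride carrier, fell from 14.3 ± 3.15 to 4.91 ± 0.599 CPM and the chaperone gene HSPA4L from 108 ± 1.21 to 63.4 ± 1.29 CPM. The classical osmolyte carrier genes were named after their values were seen. SLC6A6 passed with a log2 fold change of -0.18, while SLC5A3 (-0.06) and SLC6A12 (1.54, from 0.161 ± 0.170 to 0.497 ± 0.283 CPM) did not pass.

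**Figure D5:**
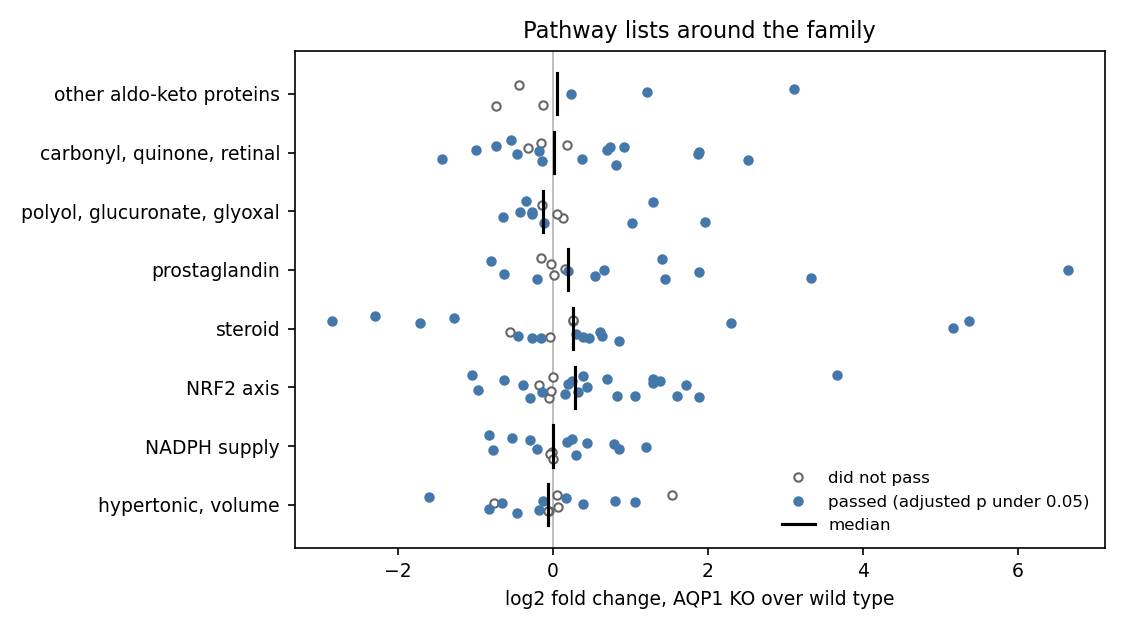
Log2 fold change (knockout over wild type) of every tested gene on the 8 lists, by list. Blue points passed edgeR's test, open points did not, and black bars are the medians, which run from -0.13 to 0.28. PTGFR is the point at 6.64.

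Since the AKR1C genes are known from hepatocytes, markers of that cell type were measured too. Their summed level was 60.6 to 64.4 CPM in wild type, against 132 to 137 CPM for the knockout, and 6 of 7 tested markers rose. Most of these, namely FGA, FGB (0.0403 ± 0.0136 to 15.6 ± 1.09 CPM), FGG and AMBP, were tested only through their knockout level, so a rise was built in. SERPINA1 had the highest level (53.5 ± 1.91 to 70.9 ± 3.34 CPM), and CPS1 went from 6.21 ± 0.414 to 41.9 ± 0.812 CPM. The albumin gene ALB stayed under the floor, at 0.0161 ± 0.0280 and 0.0344 ± 0.0299 CPM, and 5 of the 20 markers (APOA2, APOB, APOC3, TTR and CYP3A4) were at 0 in all 6 libraries. Summed fibroblast markers were 15.9 to 18.5 CPM in wild type, against 35.9 to 38.9 CPM for the knockout, and immune and endothelial markers 108 to 114 against 206 to 212 CPM, nearly all of it CD68. The summed level of the cholangiocyte markers, given above, was lower in the knockout, where 7 of 10 tested fell and 2 rose. The part of these markers in the AKR1C levels was not tested. Each group is 1 clone of a cancer line, so marker levels are not read as liver, stromal or immune cells. Whether more cells of a clone expressed a marker or each cell held more of its RNA cannot be told apart in bulk RNA.

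The genes most like AKR1C3 over the 6 libraries, by root mean square difference of centred log2 CPM, were AHNAK2 (0.115), B3GALT5 (0.118) and SMAD6 (0.122). AHNAK2 had 12.4 ± 2.70 CPM in wild type, against 78.3 ± 6.86 CPM for the knockout. For AKR1A1 they were LMNB2 (0.00919), SMNDC1 (0.0108) and CNOT1 (0.0116), with log2 fold changes of -0.13, -0.12 and -0.14.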

How the data were processed

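Polyadenylated RNA was sequenced from 6 libraries (strand-marking Illumina TruSeq preparation, per the labels' protocols). The authors deposited whole-number read counts per gene symbol, without normalization. Trimmomatic 0.33, FastQC, HISAT2, edgeR and the build hg38 are named in the submitters' processing notes. Not given in the sources used here are the counting program, strand setting, annotation and read length.

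Groups came from the genotype labels. Counts were fitted with edgeR 4.0.16 in R 4.3.3: filterByExpr (14405 of 26485 rows kept), TMM factors (0.98 to 1.024), a quasi-likelihood F test without covariate, and BH adjustment at 0.05. SE was taken as the size of the log2 fold change over the root of F. CPM in the text uses library totals. Replicates differed by more than sampling noise (chi-square per degree of freedom of at least 4.18). The steps were tested on simulated counts.

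Other settings tried were library totals alone, no filter on counts, 1 CPM reached in 3 libraries, RLE factors, DESeq2 1.42.0, limma-voom (limma 3.58.1), the letters as a block, each library left out, and a 3 Mb window. The members and lists were chosen with earlier results of these data known. Named genes are the members, all other tested aldo-keto proteins, AQP1, NFE2L2, KEAP1, NFAT5, the 2 largest rises and falls that passed on each list or neighbour set (some are not reported here), and the 3 genes most like the most abundant and the most changed member (log2 CPM, prior count 2). Coding lengths came from GENCODE, since no protein table was used here. Coordinates came from RefSeq genes (GRCh38), matched by 23752 current and 1540 older symbols.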

Additional observations from a re-analysis of the deposited data

How the results depend on the processing

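No member, and no named gene that passed and was followed, changed direction in any alternative run. The cell type markers, SORD and the osmolyte carrier genes were among those not followed singly. KEAP1, which did not pass in any run, had a log2 fold change of -0.05 and, with library totals alone, 0.0037. The log2 fold change of AKR1A1 was -0.0808 with library totals alone and ran from -0.15 to -0.10 with each library left out, and that of AKR1B1 ran from 0.76 to 1.62 with each library left out; the cause was not tested. AKR1B1 could not be fitted under the minimum of 1 CPM, which it does not reach. Widening the neighbour window from 1 to 3 Mb took in more genes, with 39 rises and 44 falls in place of 20 and 18. The other alternatives for the leading results stayed within 1.5 times a count or within the spread between libraries. Among the genes followed, single calls were lost for LINC00704 (6 alternatives) and SMNDC1 (3), and AKR7A3 passed without knockout library b (adjusted p = 0.0282, edgeR quasi-likelihood with BH).

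Deviations of same-letter libraries correlated at 0.07, -0.03 and 0.00 over 12714 genes, and those of different letters at -0.06 to 0.06. No clear shared deviation was thus seen, which cannot show whether same-letter libraries were handled together. With the letters as a replicate block, 10599 genes were called in place of 10711. For genes called, all genes, the alternatives gave 10009 to 11188. Depth limits AKR1B1, AKR1B15, AKR1C4 and AKR1D1, which had under 40 counts in every library, and shared sequence limits the split between AKR1C1 and AKR1C2.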
